A study of Homo sapiens with 13 samples.

Results

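The cells described here are the 370 tumour cells with the highest level of interferon-stimulated genes among 1482 cells from 6 xenograft tumours. A score was computed in each cell as the mean log2(CPM + 1), with CPM the counts per 1000000 counts of that cell, of ISG15, IFI6, IFIT1, IFIT2, IFIT3, OASL, MX1 and BST2. Within each tumour the highest 25% of cells by this score were called high cells and the lowest 25%, also 370 in all, low cells, while 742 cells lay between. The deposited table held 1569 cells, of which 87 had under 2000 detected genes and were not used. The cells were chosen by the measured levels of these 8 genes, so their own difference between high and low cells is a description and was not tested.

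BM1, the cells behind all these tumours, derives from the MDA-MB-231 breast cancer line and homes to bone. Each tumour came from 1000000 cells placed orthotopically, in the mammary fat pad, in athymic nude mice, which lack T cells from a thymus and keep their innate immune cells. CTRL cells carried a vector and RKIP cells carried the S153E mutant of RKIP (gene PEBP1), a kinase inhibitor. A CTRL and an RKIP tumour were taken 3 weeks after implantation in each of 3 replicate experiments, giving 3 tumours per arm. The tumours are told apart by the endings of the cell names, and the numbers 1 to 3 used here follow those endings, since the labels do not say which ending is which experiment. The tumours were dissociated, mouse cells and dead cells were removed, and single cells were captured on a C1 microfluidic chip. A separate bulk RNA set held 5 tumours of BM1 cells with a vector (CTRL) and 5 of BM1 cells with added KMT5C, which methylates histone H4, collected at 4 weeks. The labels do not say if the lines were clones.

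Type I interferons bind the IFNAR1 and IFNAR2 receptor, whose kinases JAK1 and TYK2 phosphorylate STAT2 and other proteins. With IRF9 these form ISGF3, a complex that binds the interferon-stimulated response element in promoters of antiviral genes. RNA sensors such as RIG-I (DDX58) and MDA5 (IFIH1) act through MAVS and IRF3, which can also switch on ISG15, OASL and the IFIT genes directly. Interferon gamma acts at gamma-activated sites and induces guanylate-binding proteins and MHC genes.

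The promoters of the score genes are shown first because they carry this element. Its core was searched as a pair of GAAA words with any 2 bases between them, on both strands, in RefSeq promoters of build GRCh38.p14 that span 250 bases before to 50 after each start. A match stood in 3.57% of 35116 such windows, and in 4.38% of 27305 genes at any of their starts. The table held 6 of the 8 score genes (not IFIT2 or OASL), and all 6 had a match. Each line gives bases upstream of the start in the direction of the gene, with matches in capitals, overlapping ones run together, and 10 bases on each side. For genes with several starts, the match nearest its start is shown.
ISG15: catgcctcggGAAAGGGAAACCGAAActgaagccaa
IFI6: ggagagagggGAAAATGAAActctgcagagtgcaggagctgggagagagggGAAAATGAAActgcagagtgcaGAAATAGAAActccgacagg
IFIT1: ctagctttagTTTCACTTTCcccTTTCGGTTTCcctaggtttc
IFIT3: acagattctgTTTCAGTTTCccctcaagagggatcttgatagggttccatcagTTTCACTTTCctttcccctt
MX1: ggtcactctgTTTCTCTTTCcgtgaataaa
BST2: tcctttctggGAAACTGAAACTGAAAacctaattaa

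These stretches lie at chr1:1013374-1013409 for ISG15, chr1:27672266-27672358 on the minus strand for IFI6, chr10:89392497-89392539 for IFIT1, chr10:89332425-89332497 for IFIT3, chr21:41431844-41431873 for MX1 and chr19:17405735-17405770 on the minus strand for BST2, the others being on the plus strand. Genes outside the score that lead in the high cells, described further on, are shown for comparison.
HERC5: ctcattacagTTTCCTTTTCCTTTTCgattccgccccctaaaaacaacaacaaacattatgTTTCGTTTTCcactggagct
IFITM3: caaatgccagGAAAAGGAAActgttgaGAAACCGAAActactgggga
ISG20: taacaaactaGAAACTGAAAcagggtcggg

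HERC5 lies at chr4:88456984-88457064 and ISG20 at chr15:88638937-88638966, both on the plus strand, and IFITM3 at chr11:320876-320922 on the minus strand. A match stood in 10 of the 15 genes with an entry among the 18 antiviral genes named further on, and in 19 of 33 other antiviral genes. IRF9 and OAS1 held no match upstream of the start in this window. The gamma-activated site, searched as TTCNNNGAA, stood in 2 of the 6 score genes and in 9.38% of all genes. A match is a string of letters and does not show that a factor binds there.

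The limits of the high group fell within a run of close scores, so the group is a range of the score and not a cell type. The lowest high cell had a score of 3.15 in CTRL tumour 1 and 3.67 in RKIP tumour 3, and the highest cell outside the group had 3.14 and 3.58 there. In each tumour 24 to 33 cells lay within 0.25 of the upper limit. The highest score was 7.78 to 10.3 per tumour, and the upper end had gaps, as in RKIP tumour 1, where 9 cells scored 8.43 or more and the next scored 6.85. Above a score of 6, a limit chosen after the values were seen, lay 52 cells, 6, 6 and 9 in the CTRL tumours and 13, 7 and 11 in the RKIP tumours. They were 2.28% of the cells of CTRL tumour 2 (95% exact binomial interval 0.842 to 4.90) and 5.31% of those of RKIP tumour 1 (2.86 to 8.90), the lowest and the highest share, with intervals that cover counting error only. In each tumour these cells came from 5 to 8 of 10 chip columns, as the cell names give them.

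**Figure D1:**
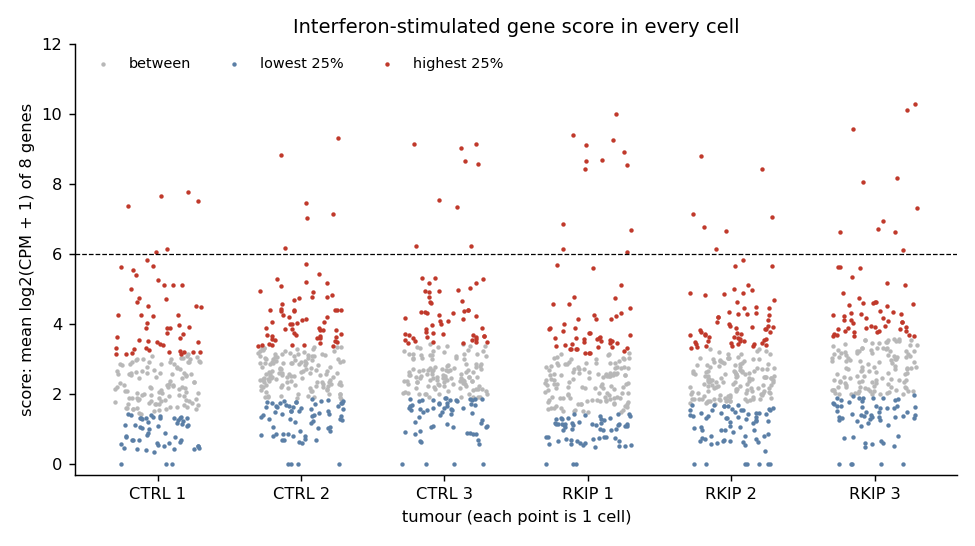
Score of each of 1482 cells (vertical axis, mean log2(CPM + 1) of 8 genes) in the 3 CTRL and 3 RKIP tumours (horizontal axis). Each point is a cell, red for the highest 25% and blue for the lowest 25% of its tumour, and the 52 cells above the dashed line at 6 occur in all 6 tumours.

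High cells were deeper than low cells. Their median total was 63743 to 134665 counts per tumour, against 34172 to 101432 in low cells, and it was larger in each of the 6 tumours. Medians of the gene lists are therefore also given for cells thinned to 20000 counts and for the score after depth and detected genes were taken out. No doublet caller was run, no cell name occurred in more than 1 tumour, and no mitochondrial gene is listed. The share of high cells ranged from 0 to 60% between chip columns of CTRL tumour 1, and with cells split within chip columns the antiviral list described below had a median of 0.76, against 0.81. The table lists 15005 genes. VIM and LGALS1, both abundant in this line, had counts in 100% of cells. PTPRC, CD68 and CD14 of leukocytes, VWF and CDH5 of vessels and DCN of fibroblasts are not among the listed genes, and of 15 leukocyte and macrophage markers LAPTM5 and CSF1R are. LAPTM5 had counts in 62.2% of cells, at 112 CPM in high cells and 97.3 CPM in low cells. The endothelial genes PECAM1, KDR and TIE1 and the fibroblast genes COL1A1 and PDGFRB are listed. PECAM1 had counts in 20% of high and 9.19% of low cells, COL1A1 in 11.1% and 6.22%, and PDGFRB in 3.51% and 0.811%, at unequal depth. The part of these markers in the results was not tested.

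The 8 score genes did not all vary together. IFIT1, IFIT2, IFIT3, OASL and ISG15 were positively correlated across cells in each tumour, while pairs with IFI6, MX1 or BST2 had lower or no correlation. IFIT1 and IFIT2 bind foreign RNA, OASL enhances RIG-I signalling, and ISG15 is a ubiquitin-like modifier. Within tumours, on cells thinned to 20000 counts, the median rank correlation over the 6 tumours was 0.31 for IFIT1 with OASL, 0.30 for IFIT1 with IFIT2 and 0.29 for IFIT2 with IFIT3. It was 0.07 for IFI6, a mitochondrial and endoplasmic reticulum protein, with MX1, an antiviral GTPase. It was 0.04 for IFI6 with BST2, the virus-tethering protein tetherin, and -0.02 for IFI6 with IFIT2. The 10 pairs among the first 5 genes had medians from 0.17 (ISG15 with IFIT2) to 0.31, and those with IFI6, MX1 or BST2 from -0.02 to 0.16 (ISG15 with MX1), so that the ranges nearly met. These describe cells that share a library and its depth.

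To test each score gene, the cells of each tumour were split again by the other 7 genes, so that the gene had no part in choosing them. ISG15, IFIT1 and IFIT2 rose in high cells by edgeR's quasi-likelihood test with Benjamini-Hochberg adjustment over all genes of the fit. The genes called were ISG15 and POLR2H, a subunit shared by the RNA polymerases, in the fit for ISG15 (0.0145% of 13748 genes), and the tested gene alone in the fits for IFIT1 (0.00729%) and IFIT2 (0.00723%).

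ISG15 stood at 2794, 1725 and 3003 CPM in the high cells of CTRL tumours 1 to 3 and at 2973, 1678 and 3309 CPM in those of RKIP tumours 1 to 3. In the low cells of the same tumours it stood at 291, 538, 435, 344, 261 and 321 CPM. The high and low sums did not overlap, and the log2 difference was 2.78 (SE 0.20, edgeR adjusted p = 4.30e-04).

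IFIT1 ranged from 40.9 to 228 CPM in high cells and from 0.962 to 7.74 CPM in low cells, again without overlap, with a log2 difference of 5.04 (SE 0.31, edgeR adjusted p = 6.65e-05). IFIT2 ranged from 206 to 1630 CPM and from 1.84 to 46.2 CPM, with a difference of 5.63 (SE 0.64, edgeR adjusted p = 0.0366). The call of IFIT2 was lost without any of CTRL tumours 1 or 3 or RKIP tumours 1, 2 or 3, with an edgeR adjusted p of up to 0.371, while ISG15 and IFIT1 passed with each tumour left out.

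OASL and IFIT3 were higher in all 6 tumours but did not pass, with log2 differences of 4.55 (SE 0.60, edgeR adjusted p = 0.0845) and 3.73 (SE 0.57, 0.461). OASL passed on thinned cells (4.29, SE 0.49, edgeR adjusted p = 0.00599) and without CTRL tumour 1 (1.65e-04), and IFIT3 without RKIP tumour 1 (0.0234). BST2, MX1 and IFI6 had differences of 0.95 (SE 0.42), 0.93 (SE 0.73) and 0.60 (SE 0.37), with edgeR adjusted p of 0.998, 0.982 and 0.980, and their high and low sums overlapped. The mean of MX1 ran the other way, with 23.6 CPM in high and 26.9 CPM in low cells, where RKIP tumour 1 had 101 CPM. BST2 and MX1 were higher in 4 and IFI6 in 5 of 6 tumours, with unadjusted edgeR p of 0.0464, 0.231 and 0.137. A high cell by the other 7 genes was thus not detectably higher in these 3 genes after adjustment over all genes.

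**Figure D2:**
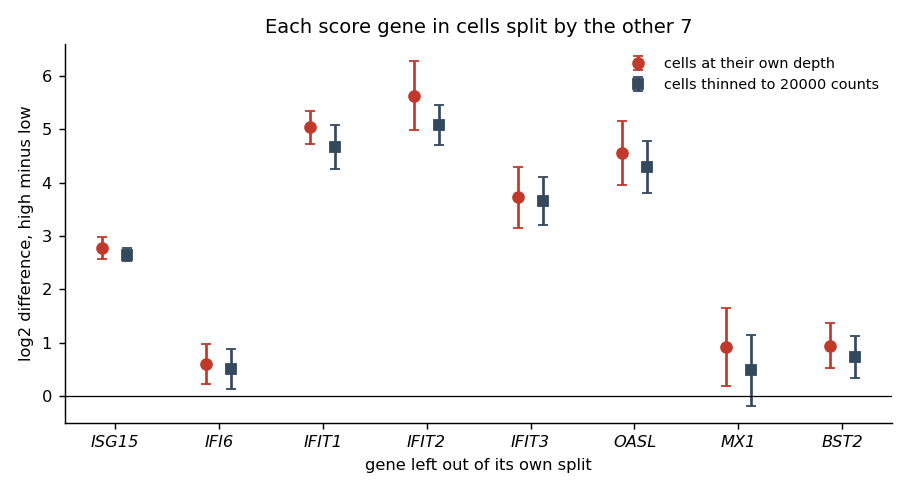
Log2 difference of high minus low cells (vertical axis, with SE) for each score gene (horizontal axis) when the cells were split by the other 7 genes, over 6 tumours. Red circles are cells at their own depth and dark squares cells thinned to 20000 counts, and ISG15, the IFIT genes and OASL lie above 2.5 while IFI6, MX1 and BST2 lie below 1.

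The 52 cells with the highest scores were chosen by these genes, so their shares of score gene counts are a description and were bound to be raised. The 52 cells with a score of at least 6 were 3.51% of cells and held 4.82% of all counts. They held 91.8% of the counts of IFIT2, 88.5% of IFIT1, 81.1% of OASL, 78.2% of IFIT3 and 46.0% of ISG15, but 15.0% of MX1, 9.80% of BST2 and 9.24% of IFI6. Among genes the score did not use, they held 54.3% of the counts of GBP4, 53.5% of OAS2, 53.2% of HERC5 and 43.8% of IFIH1. Their median depth was 137180 counts and 4612 detected genes, against 90332 counts and 4639 genes in the other 318 high cells.

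**Figure D3:**
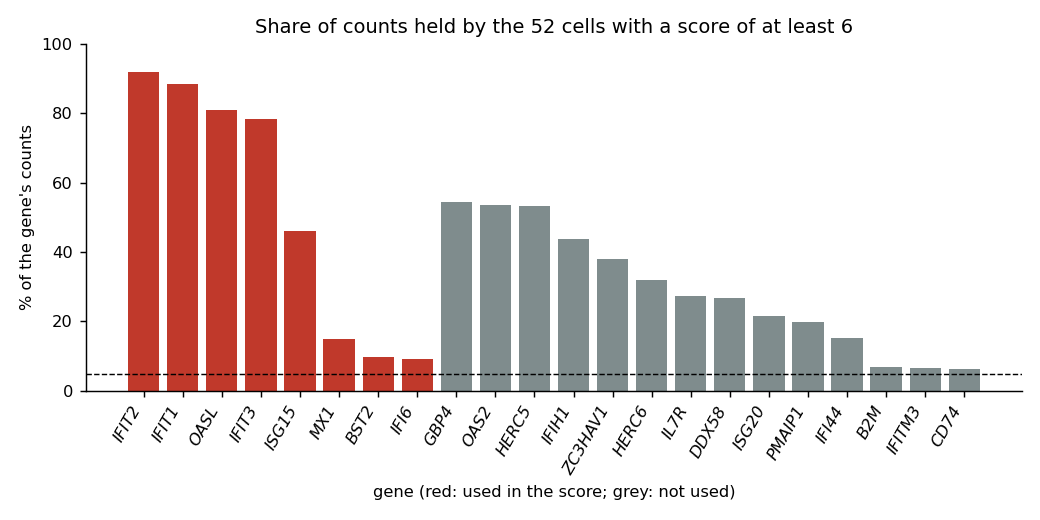
Percent of each gene's counts (vertical axis) that lay in the 52 cells with a score of at least 6, for the 8 score genes in red and 14 other genes in grey (horizontal axis). The dashed line is the 4.82% of all counts that these cells held, and CD74, at 6.20%, sits close to it.

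No gene outside the score passed the test between high and low cells. Of 13732 genes tested, 0% had an edgeR adjusted p under 0.05, while 3.18% were higher and 2.01% lower at an unadjusted p under 0.05. DESeq2 called 64 genes higher (0.494%) and 27 lower (0.208%) in the same sums. On thinned cells edgeR called IFITM3 alone (0.00922% of 10847 genes). As the planned choice of named genes from called genes left none, the genes below were chosen after their values were seen, by their order of p or as list members higher or lower in all 6 tumours. Where their high and low sums are said not to overlap, this is a description. The share of all genes without overlap is not given here.

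Many antiviral genes outside the score were higher in the high cells. Of 61 members, 18 (29.5%) were higher in all 6 tumours and 0 were lower in all 6, beside 2.22% and 1.84% of all genes. At an unadjusted p under 0.05, 24 were higher and 0 lower, beside 3.18% and 2.01% of all genes. The median log2 difference was 0.81, against 0.03 for all genes. It was 0.79 on thinned cells, 0.90 with depth taken out of the score and 0.56 without the cells scoring at least 6. In that last split 17 of the 61 were higher at an unadjusted p under 0.05, beside 2.72% of all genes. There 9 were higher in all 6 tumours, for which no share of all genes is given. The other members of the 18 not named below are IFITM1, SAMD9, LY6E, SP100, LGALS3BP, UBE2L6 and C19orf66.

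HERC5 is the ligase that attaches ISG15 to proteins. It stood at 97.7, 49.1 and 69.3 CPM in the high cells of CTRL tumours 1 to 3 and at 101, 76.5 and 110 CPM in those of RKIP tumours 1 to 3. In low cells it stood at 29.03, 21.9, 3.76, 4.70, 15.6 and 14.1 CPM, below every high value. The log2 difference was 2.76 (SE 0.47, edgeR adjusted p = 0.436), and DESeq2 gave an adjusted p of 1.26e-07. Without the cells scoring at least 6 the difference was 0.94. HERC6, a related ligase, had a difference of 2.31 (SE 0.55).

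OAS2, which makes the activator of RNase L upon binding double-stranded RNA, stood at 13.4, 19, 38.03, 58.5, 26.4 and 58.1 CPM in high cells. It stood at 1.74, 4.57, 0.627, 0.188, 4.99 and 9.004 CPM in low cells, again with no overlap, a log2 difference of 3.59 (SE 0.78, edgeR adjusted p = 0.540). OAS1, of the same family, had a difference of 3.33 (SE 0.96) from 481 counts in high and 39 in low cells. OAS2 and OAS1 kept a difference without the cells scoring at least 6, of 1.93 and 3.06. Both were low in the low cells, so their fitted differences are not exact sizes.

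ISG20, an RNA exonuclease, averaged 141 CPM in high and 55.5 CPM in low cells and differed by 1.27 (SE 0.23, edgeR adjusted p = 0.436). IFITM3, which blocks virus entry in endosomes, was abundant in all cells, at 2748 to 4810 CPM in high and 2294 to 3218 CPM in low cells. Its log2 difference was small, 0.41 (SE 0.08), and 0.50 (SE 0.07, edgeR adjusted p = 0.0460) on thinned cells. Reads can be split between IFITM3 and its close copies IFITM1 and IFITM2, so its single value is uncertain. The antiviral zinc finger protein ZC3HAV1 differed by 1.67 (SE 0.43), and by 0.25 without the cells scoring at least 6. ZNFX1, an RNA sensor at mitochondria, differed by 0.99 (SE 0.21) and PARP14, an ADP-ribosyltransferase, by 1.31 (SE 0.32). IFI44 and IFI44L differed by 1.72 (SE 0.52) and 3.14 (SE 1.03), IFI44 with 388 CPM in the high cells of CTRL tumour 2 against 12.5 to 52.4 CPM in the others.

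**Figure D4:**
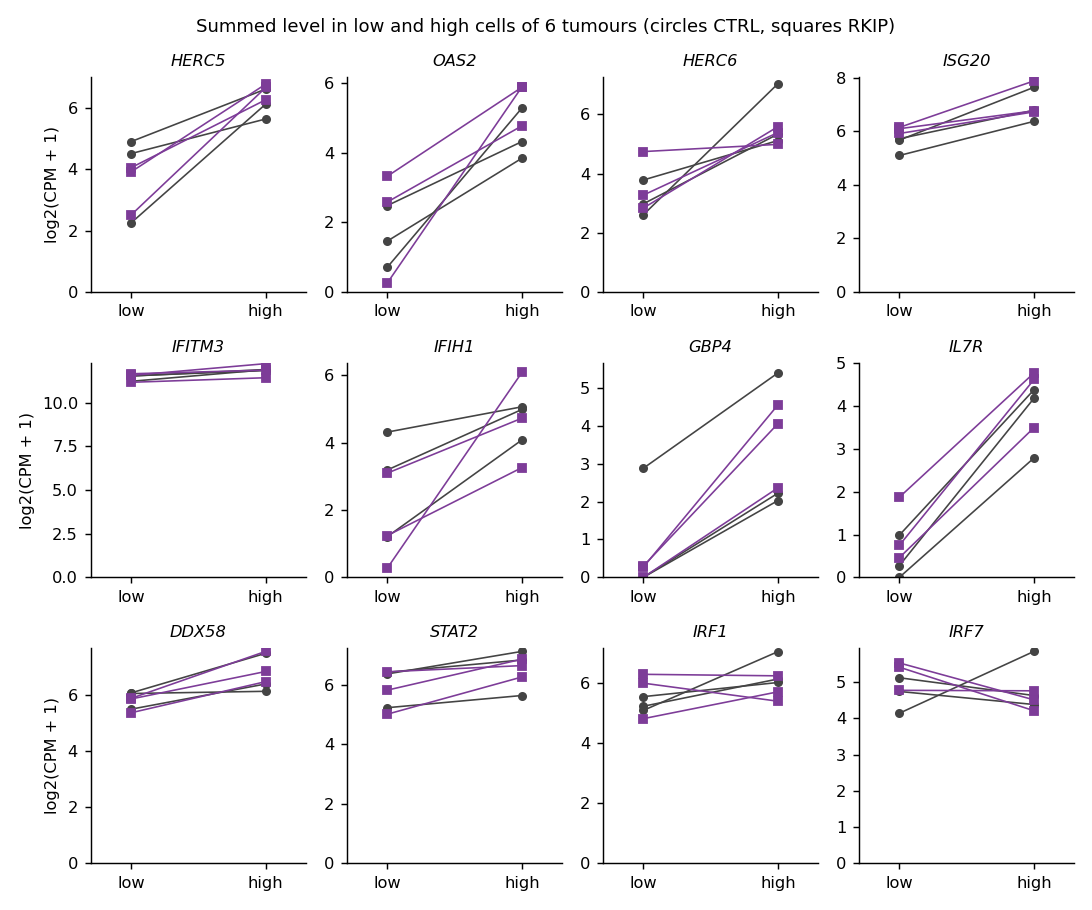
Level of 12 genes that the score did not use, as log2(CPM + 1) of summed counts (vertical axes), in low and high cells (horizontal axes) of each tumour, joined by lines. Circles are CTRL and squares RKIP tumours; HERC5, OAS2 and IL7R are higher in the high cells of all 6 tumours, while IRF1 and IRF7 are not.

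Of 15 sensors of foreign nucleic acid and their adaptors, 4 were higher in all 6 tumours and 0 lower, beside 2.22% and 1.84% of all genes. The median was 0.58, but 0.36 on thinned cells, 0.17 with depth taken out of the score, 0.12 with at least 4000 detected genes and 0.014 within chip columns. DDX58 (RIG-I) stood at 181, 84.0, 69.8, 190, 89.1 and 115 CPM in high cells and at 40.6 to 67.1 CPM in low cells, which did not overlap. It differed by 1.05 (SE 0.24, edgeR adjusted p = 0.667), but by 0.09 without the cells scoring at least 6. IFIH1 (MDA5) differed by 2.67 (SE 0.79) with 1420 counts in high and 192 in low cells. TRAF3, an adaptor downstream of MAVS, differed by 1.54 (SE 0.41). TMEM173 (STING), the adaptor of DNA sensing, differed by 0.94 (SE 0.37), and by 0.01 on thinned cells.

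Of 16 receptors, kinases, STATs and IRFs of the signalling arm, 1 was higher in all 6 tumours and 0 lower, beside 2.22% and 1.84% of all genes. Their median was 0.28, 0.16 on thinned cells, 0.28 with depth taken out and 0.56 with at least 4000 detected genes. That gene, STAT2, was at 49.0 to 139 CPM in high and 31.3 to 85.9 CPM in low cells, a difference of 0.69 (SE 0.23, edgeR adjusted p = 0.873). IRF7, which amplifies interferon production, was higher in 1 of 6 tumours (-0.28, SE 0.43). IRF1 was higher in 4 of 6 tumours, with a difference of 0.61 (SE 0.34), and IRF9 also in 4, with one of 1.37 (SE 0.99), the latter from 6.60 and 6.06 CPM and turning to -0.65 on thinned cells, -0.21 with depth taken out and -0.25 with cells split at the median. Of 8 feedback inhibitors, 1 was higher in all 6 tumours, the phosphatase PTPN2, beside 2.22% of all genes. Their median was 0.08, against 0.11 on thinned cells and -0.52 with depth taken out. None of 10 interferon genes looked up is among the listed genes, so no ligand was measured here.

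Genes induced mainly by interferon gamma had a median of 0.62 over 12 members, 0.73 on thinned cells and 0.83 with depth taken out. Of the 12, GBP2 and GBP4 were higher in all 6 tumours, beside 2.22% of all genes. GBP4, a guanylate-binding protein, stood at 41.0, 3.66, 3.07, 4.14, 15.6 and 22.4 CPM in high cells and at 6.34, 0, 0, 0, 0.227 and 0.205 CPM in low cells. The difference was 5.47 (SE 0.95, edgeR adjusted p = 0.436) from 652 and 42 counts, and CTRL tumour 1 held the highest value of both splits. With 3 low sums at 0, it passed the filter on low values through the high cells, and the fitted size is not a bound. GBP2 differed by 1.46 (SE 0.36), and by 1.42 without the cells scoring at least 6.

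MHC class II genes present peptides taken up from outside and are induced through CIITA. Of 8 tested, 2 were higher in all 6 tumours and 0 lower, beside 2.22% and 1.84% of all genes. Their median was 1.12, 1.24 on thinned cells, 0.96 with depth taken out and 1.16 without the cells scoring at least 6. CD74, the invariant chain, stood at 686, 267, 529, 730, 431 and 920 CPM in high cells and at 331, 267, 291, 541, 292 and 671 CPM in low cells, so that CTRL tumour 2 was near equal. It differed by 0.56 (SE 0.14, edgeR adjusted p = 0.667). HLA-DMA, which loads peptides, differed by 1.07 (SE 0.35). The cells scoring at least 6 held 6.20% of CD74 counts, near their 4.82% of all counts. Of 20 MHC class I and peptide-loading genes, B2M was higher in all 6 tumours (0.42, SE 0.13) and TAP2 lower, 5% each beside the same shares. Their median was 0.18, the same on thinned cells and 0.23 with depth taken out.

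IL7R, the interleukin-7 receptor chain, was near 0 in low cells and passed the filter on low values through the high cells, so its fitted difference is not an exact size. It stood at 5.92, 19.9, 17.2, 10.3, 23.6 and 26.4 CPM in high cells and at 0, 0.980, 0.209, 0.376, 0.680 and 2.66 CPM in low cells. The groups did not overlap, with 748 and 22 counts, which is a description only, given how the gene passed the filter. The fitted difference was 4.87 (SE 0.75, edgeR adjusted p = 0.436), or 3.82 without the cells scoring at least 6. PMAIP1, the cell death protein NOXA, stood at 157 to 268 CPM in high and 80.7 to 154 CPM in low cells and differed by 0.89 (SE 0.17), or 0.34 without those cells. TCN1, a vitamin B12 carrier, differed by 2.81 (SE 0.57). NF-kB genes and cytokines, 22 in all, had a median of 0.24, 0.58 on thinned cells and 0.34 with depth taken out, and 1, NFKB2, was higher in all 6 tumours, beside 2.22% of all genes.

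Lists of cell division and hypoxia genes had medians below 0 in the summed counts, but the hypoxia list was not lower per cell. Of 52 genes of G2 and M phase, 0 were higher and 2, BIRC5 and CKAP2, lower in all 6 tumours, with a median of -0.17, and 6 were lower at an unadjusted p under 0.05, beside 1.84% and 2.01% of all genes. The medians of this list in single tumours went both ways, from -0.68 in RKIP tumour 3 to 0.43 in RKIP tumour 1. BIRC5, the survivin of dividing cells, averaged 212 CPM in high and 304 CPM in low cells, a difference of -0.55 (SE 0.19, edgeR adjusted p = 0.903). With depth taken out of the score the median of this list was -0.57 and that of 42 S phase genes -0.45, the latter being -0.05 in the main split. Of 30 hypoxia and glycolysis genes, ADM, SLC2A3 and PDK1 were lower (10%) and ALDOA higher (3.33%) in all 6 tumours, beside 1.84% and 2.22% of all genes. The median was -0.17. That median was also -0.17 on thinned cells, but -0.056 with depth taken out and 0.048 with at least 4000 detected genes. HSPA5, the main chaperone of the endoplasmic reticulum, was lower in all 6 tumours (-0.48, SE 0.10, edgeR adjusted p = 0.540), with 1251 CPM in high and 1760 CPM in low cells on average.

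The cells between the high and low groups, divided at the median score into a lower-middle and an upper-middle group, were compared too. In this comparison, added after the data were seen, 0% of 13852 genes passed edgeR's test and 1.95% were higher at an unadjusted p under 0.05. The antiviral list had a median of 0.16, with 3 of its members at that level, and the sensors -0.02. The lists of interferon gamma genes, MHC class II and NF-kB genes had medians of 0.81, 0.58 and 0.29, against 0.62, 1.12 and 0.24 between high and low cells. HERC5 stood at 15.0 ± 6.49 CPM in the lower-middle and 14.9 ± 9.45 CPM in the upper-middle group (SD, n = 6 tumours), against 14.9 CPM in low and 83.9 CPM in high cells. IFITM3 stood at 2713 ± 279 and 3129 ± 326 CPM, against 2802 CPM in low and 3754 CPM in high cells. OAS2 stood at 6.00 ± 4.68 and 11.2 ± 4.61 CPM, between 3.52 and 35.6 CPM.

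The introduced RKIP did not detectably move the score. Its mean per tumour was 2.46, 2.75 and 2.82 in CTRL and 2.58, 2.56 and 2.93 in RKIP tumours, which overlapped. The difference was 0.02 (exact two-sided permutation test over 3 against 3 tumours, p = 1.00, with 0.10 the smallest p this design allows). With a single limit of 3.35 for all tumours, 19% to 27.6% of cells per CTRL and 21.2% to 31.5% per RKIP tumour lay above it. The rat RKIP transcript of the construct was at 0 to 0.523 CPM in the high cells of CTRL tumours and at 1.59, 76.9 and 189 CPM in those of RKIP tumours 1 to 3. In RKIP tumour 1 it was at 28 CPM in low cells. Human PEBP1 was lower in the high cells of all 6 tumours (-0.22, SE 0.12, edgeR adjusted p = 0.949), and BACH1, a transcription factor tied to RKIP in this line, in 4 of 6 (-0.11, SE 0.15).

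The difference between high and low cells was not detectably different between the arms, with 0% of 13732 genes called by edgeR in the interaction of split and arm, 3.69% at an unadjusted p under 0.05 and 40 called by DESeq2. Within high cells alone, 0% of 13393 genes differed between RKIP and CTRL tumours by edgeR, 3.35% at an unadjusted p under 0.05, and DESeq2 called 15 higher and 18 lower. IFIT2, which helped choose these cells and so is described without a test, had 280, 219 and 311 CPM in the CTRL and 1696, 324 and 1317 CPM in the RKIP tumours. RKIP tumours 1 and 3 stood apart and RKIP tumour 2 was close to CTRL tumour 3. As the cells of the arms lay in different chip columns, arm and chip column cannot be told apart.

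In the bulk tumours, which the score did not use, several genes that lead in the high cells were lower with KMT5C. In that comparison 1.90% of 17947 genes were lower and 1.06% higher by edgeR. Of the 8 score genes 6 were lower, all but ISG15 and IFI6, which had log2 differences of -0.34 (SE 0.11, edgeR adjusted p = 0.107) and -0.42 (SE 0.12, 0.0833). The score genes were chosen with earlier results of these data known, so this count is a description and no independent support. Of the 305 genes that were higher in the high cells of all 6 tumours, 286 were tested in bulk, and 17 of them (5.94%) were lower and 4 (1.40%) higher with KMT5C. Of the 229 tested among those lower in all 6, 1 was lower and 2 were higher. Over the 12579 genes tested in both sets, 1.76% were lower and 1.16% higher. Outside the lists for interferon and MHC genes, 10 of 258 (3.88%) were lower.

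IL7R fell from 4.37 to 9.40 CPM in the CTRL tumours, with a median of 6.12, to 2.24 to 3.18 CPM in the KMT5C tumours, with a median of 2.50, and the groups did not overlap (log2 difference -1.23, SE 0.19, edgeR adjusted p = 0.00183). GBP4 fell from a median of 2.07 CPM (1.52 to 2.63) to 0.706 CPM (0.599 to 0.957), a log2 difference of -1.41 (SE 0.21, edgeR adjusted p = 0.00158). TCN1 fell from a median of 2.77 CPM to 1.05 CPM, a log2 difference of -1.43 (SE 0.19). GBP2, OAS2, IFIH1 and IFI44 fell by 0.64, 0.50, 0.56 and 0.58 on the log2 scale, and IFI44L by 0.98. HERC5 (-0.21, edgeR adjusted p = 0.208) and ISG20 (-0.10, 0.715) did not pass. Of the 18 antiviral genes 3 fell, and of the 43 other antiviral genes also 3, beside 1.90% of all bulk genes.

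In bulk RNA, fewer cells of a type and less RNA per cell cannot be told apart. Some genes listed as markers of other cell types differed between these groups. Of 16 skeletal muscle markers 6 were higher with KMT5C and 0 lower, beside 1.06% and 1.90% of all bulk genes. Their median was 0.89, and their summed level was 113 to 152 CPM in CTRL and 118 to 179 CPM in KMT5C tumours. Of 7 leukocyte and macrophage markers 1, LAPTM5, was lower, and their sum was 138 to 180 CPM in CTRL and 98.4 to 137 CPM in KMT5C tumours. LAPTM5 had counts in 62.2% of the single cells, so here it does not mark other cells alone. Of 6 endothelial markers 1, TIE1, was lower, with sums of 57.4 to 83.4 CPM and 40.5 to 65.5 CPM. Of 6 fibroblast markers and 10 markers of the tumour line 0 changed. Their part in the bulk differences was not tested.

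**Figure D5:**
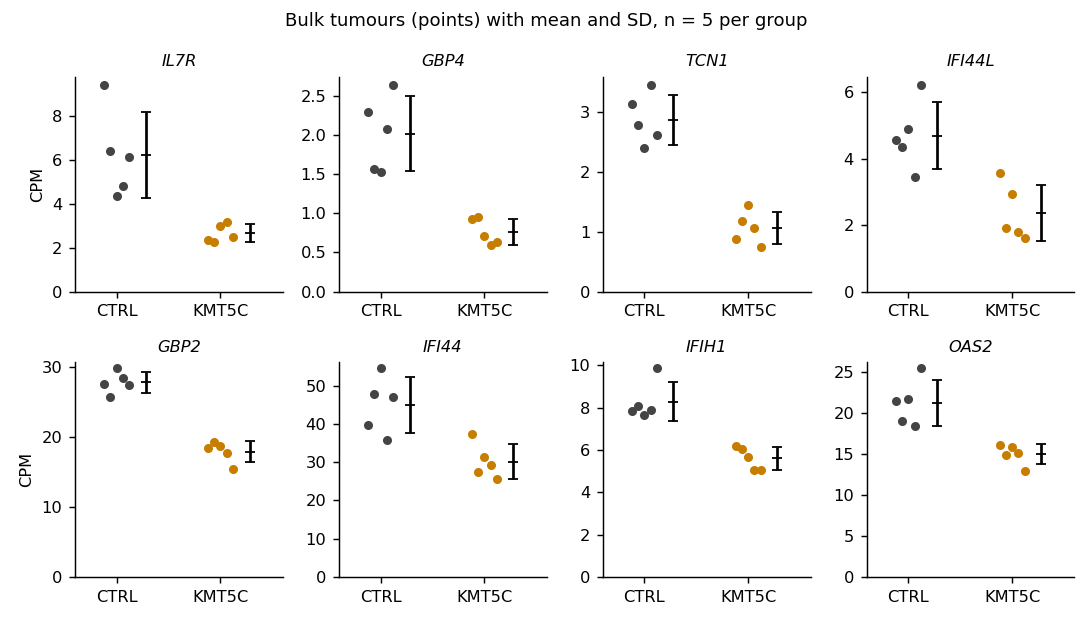
CPM (vertical axes) in 5 CTRL and 5 KMT5C bulk tumours (horizontal axes) of 8 genes that were higher in the high cells of all 6 single-cell tumours, chosen among those that fell. Points are tumours and bars give the mean and SD; IL7R, GBP4 and TCN1 do not overlap between the groups.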

How the data were processed

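Single-cell and bulk tables of raw counts per gene, deposited by the authors, were used. Per the submitters' processing notes, STAR, featureCounts and Trim Galore were used and builds hg38 and hg19 are named, without their roles; strand and use of molecular identifiers are not given in the sources used here. Cells with at least 2000 detected genes were scored and split within each tumour, and raw counts were summed per tumour and split. Sums were tested with edgeR 4.0.16 (filterByExpr, TMM, robust quasi-likelihood, tumour as block; score genes taken out between high and low cells, kept in when arms were compared within high cells) and Benjamini-Hochberg adjustment over all genes at 0.05. The block holds because both sums come from the same tumour; the arms were compared with the replicate experiment, in which 1 CTRL and 1 RKIP tumour were taken, as block. CPM of genes outside the score are scaled by TMM without the score genes; those of score genes in their own splits are per 1000000 of all counts. Bulk totals were 37050750 to 49536763 counts. Alternatives were DESeq2 1.42.0, limma 3.58.1, thinning, other splits and each tumour left out. The fits were tested on simulated data. Named genes were to be 8 score genes, 8 pathway and study genes, of which 1 is not reported here, then called genes with the same sign in all 6 tumours; no gene was called. The members and gene lists were chosen with earlier results of these data known. Lists of p53 targets, cholesterol synthesis, ERK output, immediate early and unfolded protein genes had medians of 0.06, -0.08, 0.0045, -0.28 and -0.15 between high and low cells. On thinned cells these medians were 0.24, 0.0042, -0.0079, -0.031 and -0.11. With depth taken out of the score they were 0.091, -0.053, 0.10, -0.0052 and 0.0046.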

Additional observations from a re-analysis of the deposited data

Results flagged for a closer look

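IFIH1 in the bulk CTRL tumour 815 was at 9.89 CPM, while the other CTRL tumours lay at 7.67 to 8.06 CPM, a gap that exceeds Dixon's limit for 5 samples. Of 32 groups tested in this way (16 genes in 2 groups) 1 met the limit, and chance flags about 1 in 20.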

How the results depend on the processing

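The absence of calls between high and low cells depended on the tool. edgeR called 0 genes without a filter, with depth taken out of the score, with cells split at the median, with at least 4000 detected genes, with no minimum, within chip columns, without the cells scoring at least 6 and with each tumour left out (0 to 0), and 1 on thinned cells. DESeq2 called 91, and limma on mean log2(CPM + 1) 2257, of which 2256 were higher; the cause was not tested. For the interaction with the arm DESeq2 called 40 and edgeR 0 in every other setting (0 to 0). For RKIP against CTRL within high cells DESeq2 called 33, cells split at the median 1, and leaving out a tumour 0 to 3, the 3 without CTRL tumour 2.

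Without the tumour as replicate block edgeR called 0 genes between high and low cells, and without the replicate block 0 between arms. The score difference between arms was 0.02 with the replicate block too, where the exact sign-flip test over 3 pairs gave p = 1.00, with 0.25 the smallest p it allows, so no call was possible. That difference was -0.048 on thinned cells, -0.0040 with a pseudocount of 10, and -0.10 to 0.090 with a tumour left out. The antiviral genes higher in every tumour numbered 9 without the cells scoring at least 6 and 19 to 23 with a tumour left out, and the list's median was 0.56 and 0.72 to 0.82; with cells split at the median it was 0.49. Of the 8 left-out score genes 2 to 3 passed with a tumour left out and 4 on thinned cells. The bulk comparison called 531 genes, 1114 with DESeq2, 801 without a filter and 337 to 681 with a tumour left out, fewest without KMT5C tumour 820, then 807 (344) and CTRL tumour 803 (351).

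Signs of small differences turned. IRF7 was 0.044 with at least 4000 genes, 0.44 with limma and 0.25 within chip columns. IRF9 was -0.65 on thinned cells, -0.21 with depth taken out and -0.25 with cells split at the median. PEBP1 was 0.36 with limma, and BACH1 0.014 with depth taken out, 0.39 with at least 4000 genes and 0.44 with limma. The rat transcript was -0.18 with cells split at the median, -0.52 with no minimum, -0.51 within chip columns and -0.64 to 1.19 with a tumour left out. The splits within chip columns, without cells scoring at least 6, and of the cells between high and low were chosen after seeing the data. GBP4 and OAS1 rest on 42 and 39 counts in low cells.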
